A study of Mus musculus with 18 samples.

Results

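Genes for the uptake of fatty acids and glycerol were followed in the livers of male C57BL6 mice. The 10 genes were Cd36, Slc27a1, Slc27a2, Slc27a4, Lpl, Vldlr, Fabp1, Fabp2, Fabp4 and Aqp3, out of 22180 genes that had a probe of 1 symbol. A probe belonged to a gene when the probe annotation gave it exactly that symbol. All 10 genes had such a probe, 12 probes in all, and the probe with the highest mean over the 18 arrays stood for its gene. Lpl and Slc27a2 had 2 probes each.

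A hepatocyte takes up fatty acids that circulate bound to albumin and fatty acids that are cut from the triglycerides of lipoproteins. CD36 is a scavenger receptor that carries fatty acids at the cell surface, and the SLC27 family (the fatty acid transport proteins) couples entry to activation with coenzyme A. Lipoprotein lipase cuts triglycerides at the vessel wall, the VLDL receptor binds triglyceride-rich particles, and the FABP proteins carry fatty acids inside the cell. Aquaporin 3 is a channel for water and glycerol. Healthy adult liver makes Fabp1 in quantity, whereas Lpl, Fabp4 and Cd36 are best known from fat cells, muscle and macrophages and are known to become more active in fatty liver.

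Feeding began at 6 weeks of age, lasted 12 weeks and ended at 18 weeks. Fat supplied 10% of the calories in the low-fat food and 45% in the high-fat food. Either food was given plain or with PFOS (perfluorooctane sulfonic acid) or PFNA (perfluorononanoic acid) mixed in. This gave 6 groups of 3 biological replicates: the low-fat control, low-fat PFOS, low-fat PFNA, high-fat control, high-fat PFOS and high-fat PFNA groups. PFOS and PFNA are fully fluorinated chains that end in a sulfonic acid and a carboxylic acid, and no dose was known here. The series' title names fatty liver induced by both compounds and its dependence on diet, which are the questions the comparisons address.

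All values are log2 signals of the array. The medians of the 18 arrays lay between 4.43 and 4.59. The 7 hepatocyte markers measured (such as Alb and Ttr) had mean signals between 12.23 and 12.63 over the list in each array, so the label of liver held. On the first principal component of all 34472 probes, which carried 17.9% of the variance, 5 arrays lay between 27.8 and 38.6 and the other 13 between −22.9 and −8.08. The 5 were the 3 arrays of high-fat PFOS, low-fat PFOS replicate 3 and high-fat PFNA replicate 3. The last 2 of these stood apart from the other arrays of their own group, and they are called the 2 divergent arrays here. Results are given with them and, where it changed the call, without them. Leaving them out was chosen from their values, so those results are not independent evidence.

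PFOS on the high-fat diet had the highest group mean of every one of the 10 genes. Slc27a1 and Aqp3 rose there, by 2.86 (SE 0.49, adjusted p = 0.0118) and 2.79 (SE 0.64, adjusted p = 0.0457) on the log2 scale. On the low-fat diet Cd36 rose under PFOS, by 1.47 (SE 0.31, adjusted p = 0.0460). No member was called in either comparison of PFNA with its control. An adjusted p is that of limma over all 34472 probes, a gene was called when it was under 0.05, and every group had n = 3 arrays.

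**Figure D1:**
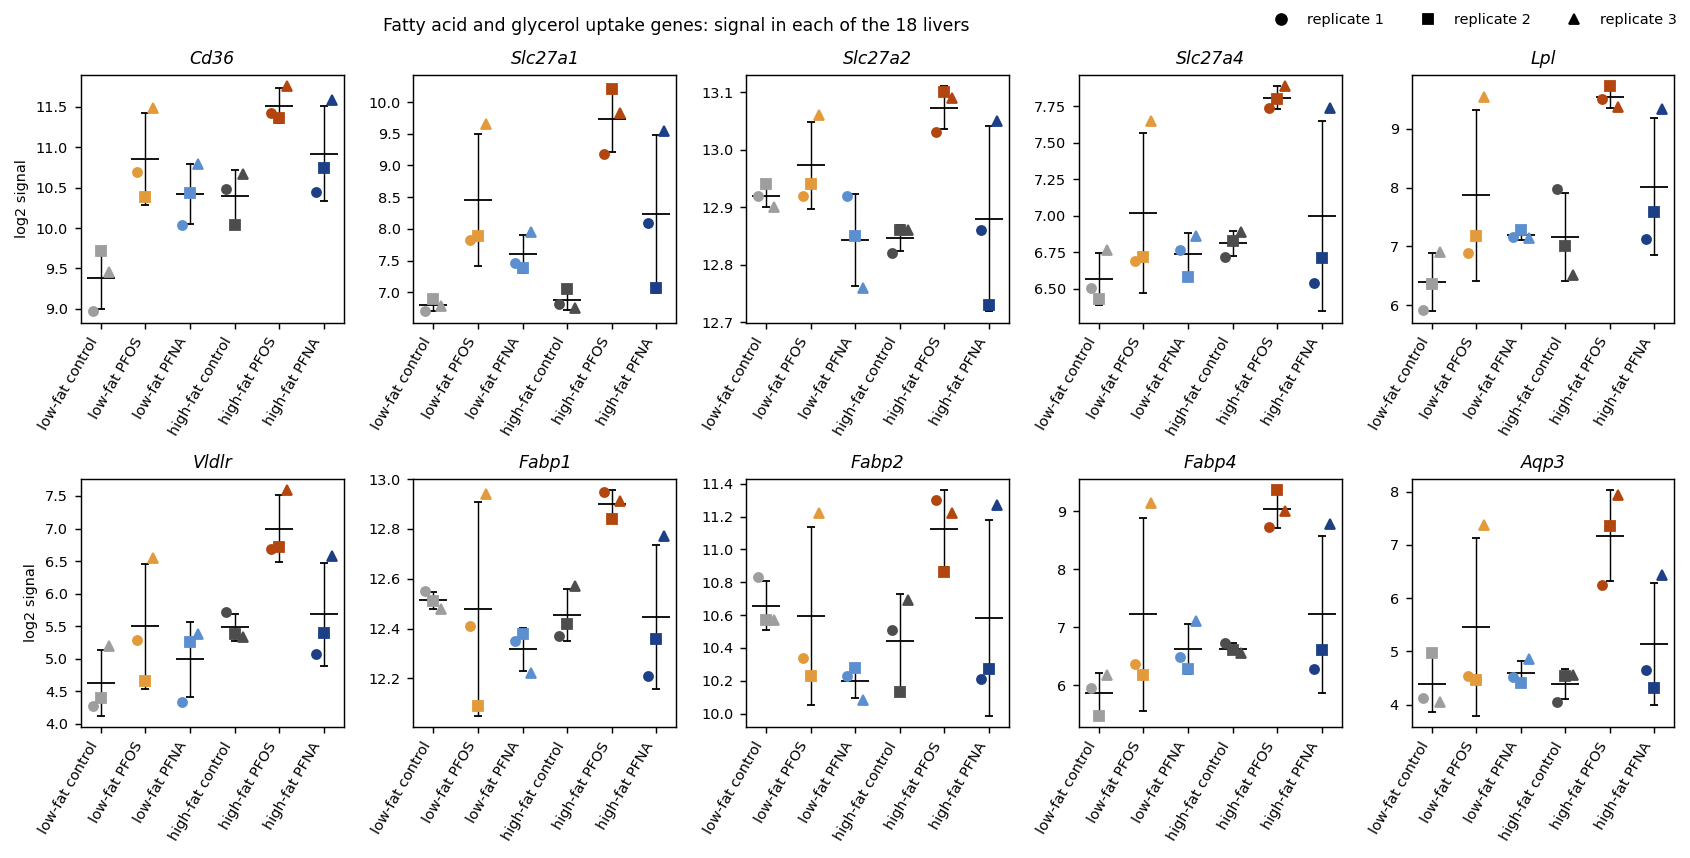
Log2 signal (vertical axis, a separate scale for each gene) of the 10 genes in the 6 groups (horizontal axis). Each point is 1 array, its shape the replicate, and the bars are the group mean ± SD over 3 arrays. In all 10 genes the 3 arrays of high-fat PFOS and the third replicates of low-fat PFOS and high-fat PFNA lie above the other 13 arrays.

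Cd36 read 8.97, 9.72 and 9.45 in the 3 low-fat controls. It read 10.69, 10.38 and 11.49 under PFOS and 10.04, 10.43 and 10.79 under PFNA on that diet. All 6 exposed arrays of the low-fat diet were thus above the highest of their controls. On the high-fat diet the controls already read 10.48, 10.04 and 10.67. PFOS gave 11.42, 11.36 and 11.76 there, all above the controls. PFNA gave 10.44, 10.74 and 11.58, and 1 of its arrays lay among the controls. The group means ran in the order low-fat control (9.38), high-fat control (10.40), low-fat PFNA (10.42), low-fat PFOS (10.85), high-fat PFNA (10.92) and high-fat PFOS (11.51). The low-fat control did not overlap with the next group, and each later pair of neighbours overlapped.

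The difference of 1.47 for Cd36 under PFOS on the low-fat diet is 2.78-fold (95% confidence interval 1.77 to 4.35). The call was lost when any 1 of the 6 arrays was left out, with adjusted p between 0.0558 and 0.161, and in a fit to the 2 groups alone (0.220). It was also lost after quantile normalization (0.0667), after subtraction of each array's 75th percentile (0.0666) and with an intensity trend in the variance (0.0541). With both divergent arrays left out the difference was 1.16 (adjusted p = 0.0370). Under PFNA on the low-fat diet the difference of Cd36 was 1.04 (SE 0.31, adjusted p = 0.130, or 0.0316 without the 2 divergent arrays, neither of which is in that comparison). Under PFOS on the high-fat diet it was 1.12 (SE 0.31, adjusted p = 0.0874, or 0.0144 without the 2 divergent arrays). Under PFNA on the high-fat diet it was 0.52 (SE 0.31, adjusted p = 0.629).

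Slc27a1, which encodes fatty acid transport protein 1, was low and even in both controls. It read 6.71, 6.90 and 6.78 on the low-fat diet and 6.81, 7.05 and 6.76 on the high-fat diet. Under PFOS it read 7.83, 7.89 and 9.66 on the low-fat diet and 9.18, 10.21 and 9.82 on the high-fat diet. Every one of the 12 exposed arrays was above all controls of its own diet, which was so for 0.957% of all probes. The margin was small in 1 array, high-fat PFNA replicate 2 at 7.06. The other PFNA arrays read 8.09 and 9.54 on the high-fat diet and 7.47, 7.39 and 7.95 on the low-fat diet.

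The rise of Slc27a1 under PFOS on the high-fat diet was 7.28-fold (95% confidence interval 3.54 to 14.9). It was called in each of the 7 other settings, with adjusted p up to 0.0224. The call was lost without high-fat control replicate 3 (adjusted p = 0.0549) or without high-fat PFOS replicate 2 (0.0664), and it held without each of the other 4 arrays. The difference was 1.66 (SE 0.49, adjusted p = 0.174) under PFOS on the low-fat diet. Under PFNA it was 0.81 (SE 0.49, adjusted p = 0.537) on the low-fat diet and 1.36 (SE 0.49, adjusted p = 0.352) on the high-fat diet.

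Slc27a4, the transport protein best known from the intestine, read 7.74, 7.80 and 7.89 under PFOS on the high-fat diet, against 6.72, 6.83 and 6.89 in the controls. Its difference of 0.997 (SE 0.26) had an adjusted p of 0.0738, and of 3.66e-04 without the 2 divergent arrays. The divergent arrays read 7.65 and 7.74, and the other 4 arrays of their groups between 6.54 and 6.72. Slc27a2, the long-chain transport protein of liver and kidney, varied little, from 12.73 to 13.10 over all 18 arrays. Its largest difference from a control was 0.23 (SE 0.11, adjusted p = 0.362), under PFOS on the high-fat diet. Its second probe did not share this order: it read 4.99 to 5.61 in the 5 arrays and 5.02 to 6.05 in the other 13.

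Among the genes for lipoprotein triglycerides, Lpl read 5.91, 6.36 and 6.90 in the low-fat controls and 7.98, 7.0 and 6.51 in the high-fat controls. Under PFOS it read 6.89, 7.18 and 9.54 on the low-fat diet and 9.51, 9.73 and 9.37 on the high-fat diet. Under PFNA it read 7.15, 7.27 and 7.14 on the low-fat diet and 7.13, 7.58 and 9.34 on the high-fat diet. The 3 low-fat PFNA arrays were all above their controls, whereas on the high-fat diet 2 of the 3 PFNA arrays lay among them. The difference under PFOS on the high-fat diet was 2.37 (SE 0.59, adjusted p = 0.0584, or 4.68e-04 without the 2 divergent arrays). The other 3 differences from a control lay between 0.80 and 1.48, with adjusted p from 0.317 to 0.691. The second Lpl probe, with signals between 2.70 and 4.67, also read highest in the same 5 arrays, at 4.09 to 4.67 against 2.70 to 3.30 in the other 13. Its mean of 3.40 lay above that of only 28.4% of probes, so its signals are not shown to be above background.

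Vldlr read 6.68, 6.72 and 7.59 under PFOS on the high-fat diet, against 5.72, 5.38 and 5.34 in the controls. The difference was 1.52 (SE 0.44, adjusted p = 0.111, or 0.0161 without the 2 divergent arrays). The low-fat controls read 4.28, 4.40 and 5.20, which is near the median of all probes, so no fold is given for Vldlr. The other 3 differences from a control lay between 0.20 and 0.87, with adjusted p from 0.461 to 0.930.

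The 3 carriers of the FABP family differed in pattern. Fabp4, the carrier of fat cells and macrophages, read 5.95, 5.48 and 6.17 in the low-fat controls and 6.73, 6.61 and 6.55 in the high-fat controls. PFOS on the high-fat diet gave 8.73, 9.36 and 9.0, and the difference was 2.40 (SE 0.63, adjusted p = 0.0727, or 3.23e-05 without the 2 divergent arrays). The divergent arrays read 9.13 and 8.77, while the other arrays of their groups read 6.36 and 6.17 (low-fat PFOS) and 6.28 and 6.61 (high-fat PFNA). The 3 low-fat PFNA arrays, at 6.48, 6.28 and 7.10, were above their controls.

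Fabp1, the abundant carrier of the hepatocyte, read 12.55, 12.51 and 12.48 in the low-fat controls and 12.37, 12.42 and 12.57 in the high-fat controls. PFOS on the high-fat diet gave 12.95, 12.84 and 12.91, and the divergent arrays read 12.94 and 12.77. The other 7 exposed arrays lay between 12.09 and 12.41, each below every control of its own diet. The signal was thus above the controls in 5 exposed arrays and below them in 7. This was so for 0.0841% of all probes in the same arrays. The 5 arrays were picked out from the same data, so that share is a description and not a test. Group means hide this split. The difference was −0.03 (SE 0.18) under PFOS on the low-fat diet and −0.01 (SE 0.18) under PFNA on the high-fat diet, where 1 high array was averaged with 2 low ones. It was 0.45 (SE 0.18, adjusted p = 0.257, or 0.0474 without the 2 divergent arrays) under PFOS on the high-fat diet and −0.20 (SE 0.18, adjusted p = 0.703) under PFNA on the low-fat diet.

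Fabp2, the intestinal carrier, ran much like Fabp1. It read 10.83, 10.57 and 10.57 in the low-fat controls and 10.23, 10.28 and 10.08 under PFNA on that diet, without overlap, but the difference of −0.46 (SE 0.27) had an adjusted p of 0.510. Under PFOS on the low-fat diet it read 10.34, 10.23 and 11.22. The high-fat controls spread from 10.13 to 10.69. PFOS on that diet gave 11.30, 10.86 and 11.22, a difference of 0.68 (SE 0.27, adjusted p = 0.256, or 0.0264 without the 2 divergent arrays).

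Aqp3 was low in both controls, at 4.13, 4.98 and 4.05 on the low-fat diet and 4.06, 4.54 and 4.56 on the high-fat diet. These signals lie around the median of all probes and are not shown to be above background, so no fold is given and its log2 differences are differences of signal, open to understatement. PFOS on the high-fat diet gave 6.25, 7.35 and 7.93, and the divergent arrays read 7.38 and 6.44. The other 7 exposed arrays lay between 4.31 and 4.85. The call under PFOS on the high-fat diet was lost without any 1 of the 6 arrays, with adjusted p from 0.0504 to 0.165, and with an intensity trend in the variance (0.0708). Leaving out both divergent arrays gave an adjusted p of 3.33e-04. Its low-fat difference was 1.07 (SE 0.64, adjusted p = 0.537) under PFOS and 0.21 (SE 0.64, adjusted p = 0.943) under PFNA. Under PFNA on the high-fat diet it was 0.75 (SE 0.64, adjusted p = 0.768).

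**Figure D2:**
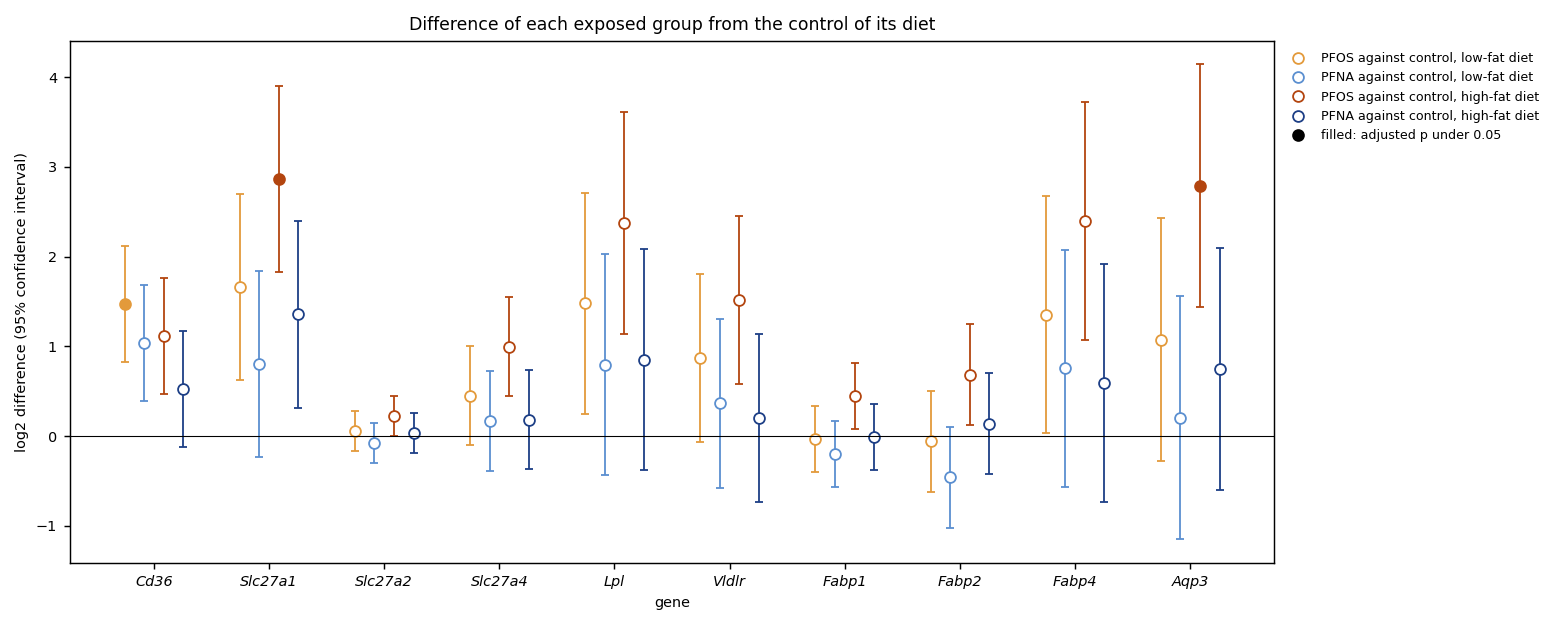
Log2 difference of each exposed group from the control of its diet (vertical axis) for the 10 genes (horizontal axis), with 95% confidence intervals from the fit to all 18 arrays and filled points at an adjusted p under 0.05. The filled points are Cd36 under PFOS on the low-fat diet and Slc27a1 and Aqp3 under PFOS on the high-fat diet.

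Counted over the list, 1 of 10 members was called higher under PFOS on the low-fat diet, where 0.281% of all probes were called higher. At an unadjusted p under 0.05 there were 4 members and 11.9% of probes. The median difference of the members was 0.97, against −0.02 for all probes, and it was 0.24 without replicate 3 of that group. Under PFNA on the low-fat diet 0 of 10 were called by limma, where 0.566% of probes were called, with a median of 0.285. At an unadjusted p under 0.05 there were 1 member, Cd36, and 12.9% of probes. Under PFOS on the high-fat diet 2 of 10 were called higher, where 0.632% of probes were called higher, with a median of 1.32, and 10 members and 13.5% of probes had an unadjusted p under 0.05. Under PFNA on the high-fat diet 0 of 10 were called, where 0.113% of probes were called, and 1 member, Slc27a1, and 9.77% of probes had an unadjusted p under 0.05. The median there was 0.36, and −0.11 without replicate 3 of that group, with 6 of 10 members below 0. The comparisons of one diet share their 3 control arrays.

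The 3 arrays of high-fat PFOS lay above the 3 high-fat controls in 10 of 10 members, and 9.71% of all probes did so. Without the 2 divergent arrays, neither of which is in this comparison, 9 of the 10 members were called there, Slc27a2 being the exception, and 2.93% of probes were called in that fit. The differences of the members are the same in both fits. What changed was the estimate of spread, which all groups share, so the added calls come from dropping arrays of other groups. On the low-fat diet 2 members lay above the controls without overlap under PFOS (Cd36 and Slc27a1), against 7.58% of probes. Under PFNA 4 did (Cd36, Slc27a1, Lpl and Fabp4), against 10.1% of probes, and 2 lay below (Fabp1 and Fabp2), against 9.32%. Under PFNA on the high-fat diet 1 did, Slc27a1, against 6.83% of probes.

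The compounds were compared on each diet, 2 comparisons in all, although their doses are not given. On the low-fat diet every member had a lower mean under PFNA than under PFOS, by 0.13 for Slc27a2 to 0.86 for Slc27a1 among those other than Aqp3. None was called by limma (adjusted p = 0.998 for each), 0 of 10 had an unadjusted p under 0.05, and 0% of probes were called. This order changed with 1 array. Without low-fat PFOS replicate 3 the means were higher under PFNA in 6 members, by 0.02 (Vldlr) to 0.36 (Fabp4), the others being Slc27a4, Lpl, Fabp1 and Aqp3. They were still lower in Cd36, Slc27a1, Slc27a2 and Fabp2, by 0.09 to 0.26.

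On the high-fat diet every member was also lower under PFNA than under PFOS, by 0.19 for Slc27a2 to 1.81 for Fabp4 among those other than Aqp3. The difference of Slc27a1 was −1.51 (95% confidence interval −2.55 to −0.47), that of Fabp4 −1.81 (−3.13 to −0.49) and that of Cd36 −0.59 (−1.24 to 0.05). None was called (adjusted p from 0.646 to 0.727), and 0.0029% of probes were. An unadjusted p under 0.05 was reached by 7 of 10 members and 7.26% of probes. Lpl, Vldlr and Fabp1 did not overlap between the compounds, where 5.14% of probes lay lower without overlap. After the 2 divergent arrays were left out, 8 of 10 members were called lower under PFNA, where 1.48% of probes were called in either direction, with Slc27a1 at −2.16 (adjusted p = 0.00165), Fabp4 at −2.59 (1.13e-04) and Aqp3 at −2.70 (0.00203). Cd36 and Slc27a2 were not. The PFNA array left out, high-fat PFNA replicate 3, was the highest of its group in every member. Leaving it out thus widened these differences, and the calls follow in part from that choice.

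Between the controls of the 2 diets no member was called by limma, where 0.0029% of probes were called. Cd36 had the largest difference between the controls, 1.02 (SE 0.31, adjusted p = 0.595), and was the 1 member with an unadjusted p under 0.05, which 6.45% of probes had. The high-fat controls did not overlap with the low-fat controls in Cd36, Vldlr and Fabp4, which were higher (4.84% of probes were), and in Slc27a2, which was lower (5.54% of probes were). The difference of Aqp3 was 0.00 and that of Slc27a1 0.08 (SE 0.49). Under PFOS all 10 members were higher on the high-fat than on the low-fat diet, by 0.10 to 1.81, and the diets did not overlap in Slc27a4 and Vldlr (5.58% of probes were higher without overlap). None was called, nor was any probe (0%), and 8 of 10 members and 7.73% of probes had an unadjusted p under 0.05. Without the 2 divergent arrays, 1 of which is in the low-fat PFOS group, 8 of 10 were called, and 2.22% of probes. That array was the highest of its group in every member, so leaving it out widened these differences. Without that array alone Fabp4 was called, at 2.77 (adjusted p = 0.0446). Under PFNA the differences between the diets lay between 0.04 and 0.83 with 0 of 10 at an unadjusted p under 0.05 and 0% of probes called.

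The interaction, which asks whether a compound's difference from its control was larger on the high-fat diet, was not called for any member with either compound. For each compound 0% of probes were called and 0 of 10 members had an unadjusted p under 0.05. With PFOS that of Slc27a1 was 1.20 (SE 0.70, adjusted p = 0.812), and Cd36 was the 1 member with a negative value, −0.36 (SE 0.43). Without the divergent arrays the interactions of Fabp4 (2.0, adjusted p = 0.0185) and Aqp3 (2.68, adjusted p = 0.0468) were called, and 0.241% of probes. Leaving out the divergent low-fat PFOS array lowered the low-fat difference of both genes and so raised these values. With PFNA the values lay between −0.52 (Cd36) and 0.60 (Fabp2).

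Averaged over both compounds and both diets, Cd36 rose by 1.04 (SE 0.19, adjusted p = 0.00416), Slc27a1 by 1.67 (SE 0.30, adjusted p = 0.00407) and Lpl by 1.38 (SE 0.36, adjusted p = 0.0333). These were 3 of 10 members called higher, where 2.99% of probes were called higher. Fabp4 differed by 1.27 (SE 0.38, adjusted p = 0.0660) and Aqp3 by 1.20 (SE 0.39, adjusted p = 0.0903), while Fabp1 (0.05), Fabp2 (0.08) and Slc27a2 (0.06) were near 0. With the 2 divergent arrays left out, Fabp4 (0.84, adjusted p = 0.00228), Aqp3 (0.80, adjusted p = 0.0363) and Slc27a4 (0.28, adjusted p = 0.0447) were called as well, and 6.27% of probes. The calls of Cd36 and Slc27a1 held without any 1 of the 18 arrays and in each of 6 other settings. That of Lpl was lost without any 1 of 7 arrays: low-fat control replicate 1 (0.0897) or 2 (0.0750), low-fat PFNA replicate 2 (0.0521) or 3 (0.0510), high-fat control replicate 2 (0.0769) or 3 (0.103) and high-fat PFOS replicate 2 (0.0520). It was also lost with an intensity trend in the variance (0.0654) and with the mean of both Lpl probes (0.0686).

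**Figure D3:**
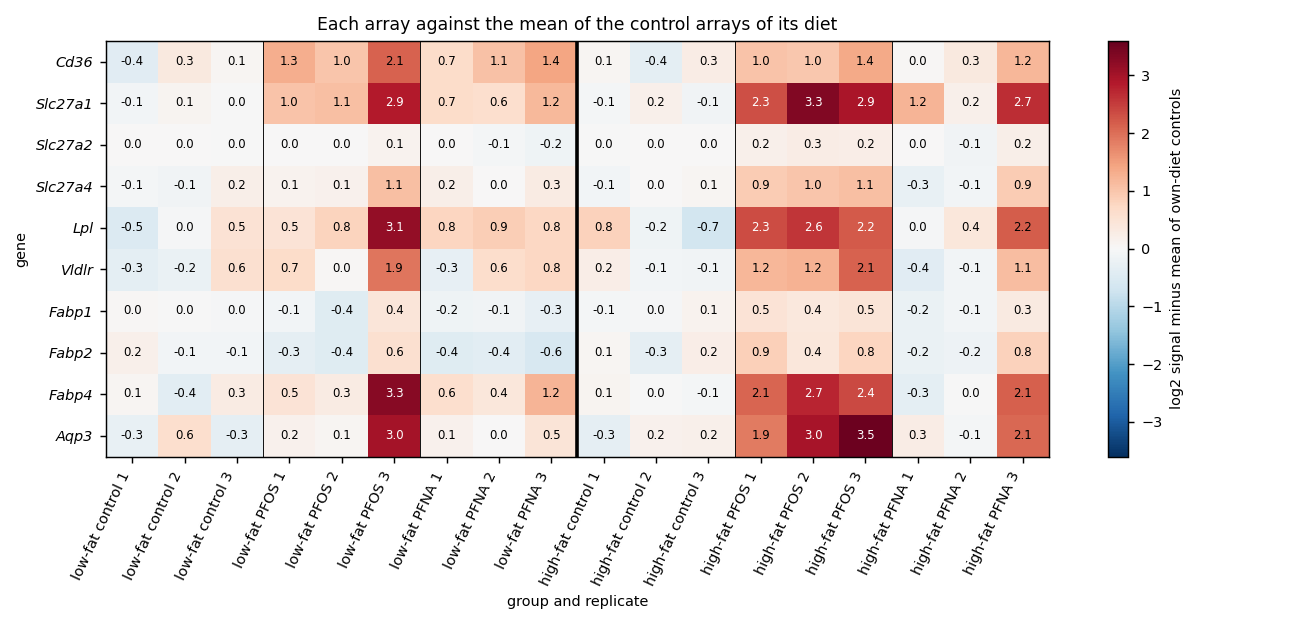
Log2 signal of each of the 18 arrays (horizontal axis) minus the mean of the 3 control arrays of its own diet, for the 10 genes (vertical axis), with the value written in each cell. The columns of low-fat PFOS 3, high-fat PFOS 1 to 3 and high-fat PFNA 3 are red throughout, and in the other exposed arrays Cd36 and Slc27a1 are at or above 0 while Fabp1 and Fabp2 are below 0.

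Taken array by array, the 10 genes showed 3 patterns. By the probe used, the 5 arrays named above were the 5 highest of the 18 in every member, which was so for 2.08% of all probes. These arrays also set the principal component, and all 10 genes are part of it. Cd36 and Slc27a1 were in addition above all controls of their diet in 6 and 7 of the other 7 exposed arrays. Lpl and Fabp4 were so in 4 of 7, Vldlr in 3, and Slc27a4 and Aqp3 in 1. Fabp1, Fabp2 and Slc27a2 were so in 0 of 7, and lay below all controls of their diet in 7, 5 and 3 of them. Slc27a4 also lay below them in 2 of the 7, and Vldlr and Fabp4 in 1 each, so the patterns are not sharply divided. The share of all probes with each of these counts over the 7 arrays was not computed, so the counts only describe the members.

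Over the 13 arrays outside the 5, Fabp1 and Slc27a1 had a Pearson correlation of −0.82, and Cd36 and Slc27a1 one of 0.52. Over all 18 arrays the values were 0.67 and 0.84. The 2 sets of arrays are far apart, so a correlation over all 18 mostly follows that gap. Each of these is a description across arrays that hold both controls and exposed livers.

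**Figure D4:**
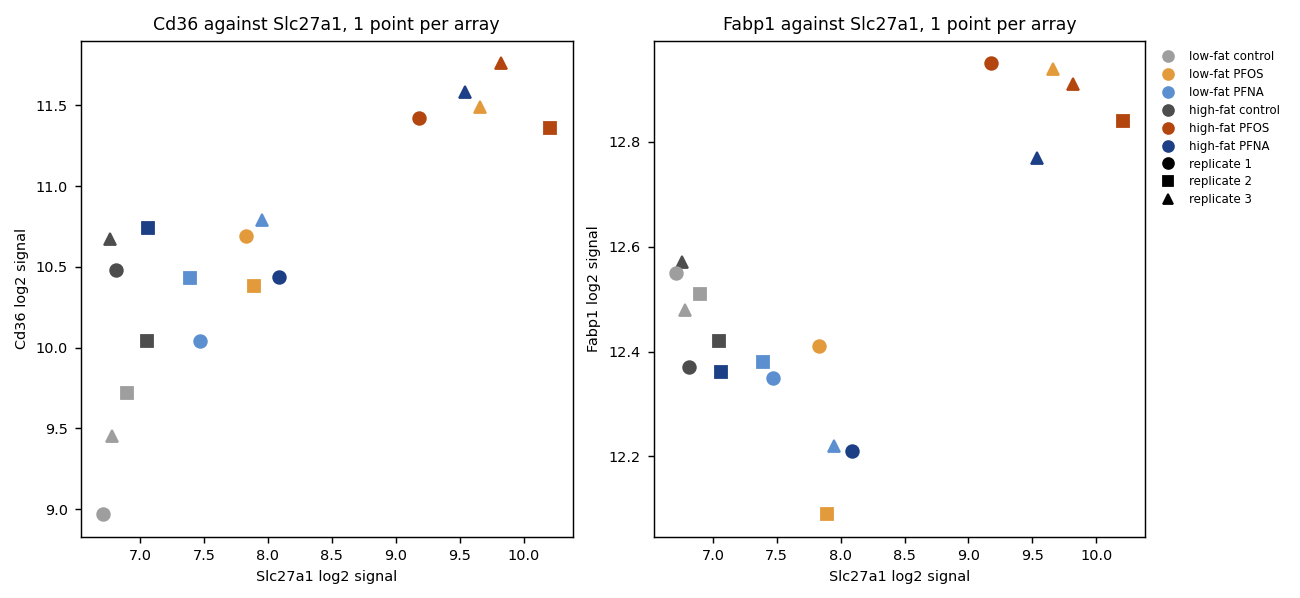
Log2 signal of Cd36 (left) and Fabp1 (right) against Slc27a1, with 1 point per array, coloured by group and shaped by replicate. Cd36 is lowest in the low-fat controls and highest in the 5 arrays at a Slc27a1 signal of 9.18 or more. It is higher in the high-fat controls (10.04 to 10.67) than in the low-fat controls (8.97 to 9.72). Their Slc27a1 signals are close, at 6.76 to 7.05 and 6.71 to 6.90. Fabp1 falls from the controls to the 7 exposed arrays at a Slc27a1 signal of 8.09 or less and is highest in the same 5 arrays.

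PPAR receptors bind, with RXR, to a direct repeat of AGGTCA with 1 base between the copies, and several of these genes are known as PPAR targets. The 250 bases before the RefSeq start (GRCm38.p6) were therefore searched on both strands for the closest match to AGGTCA, any base N, AGGTCA, counting the 12 letters other than N. The table held 11 starts of 8 members. Those of Fabp1 and Cd36 are shown because they held the closest matches, and those of Aqp3 and of Slc27a1 (the first of 3 starts) because these genes had the calls on the high-fat diet. The closest match is in capitals.

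Fabp1, chr6:71199629-71199878, strand +: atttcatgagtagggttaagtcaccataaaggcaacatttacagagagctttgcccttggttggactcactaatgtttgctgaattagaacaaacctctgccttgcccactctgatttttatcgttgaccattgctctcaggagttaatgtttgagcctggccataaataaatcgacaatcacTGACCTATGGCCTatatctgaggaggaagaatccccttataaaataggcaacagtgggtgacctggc

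Cd36, chr5:17835897-17836146, strand -: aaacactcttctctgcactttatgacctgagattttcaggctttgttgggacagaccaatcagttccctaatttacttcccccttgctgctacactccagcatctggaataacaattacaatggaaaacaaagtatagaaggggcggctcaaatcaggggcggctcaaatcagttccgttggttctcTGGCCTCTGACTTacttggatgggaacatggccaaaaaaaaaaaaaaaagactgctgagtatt

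Aqp3, chr4:41098184-41098433, strand -: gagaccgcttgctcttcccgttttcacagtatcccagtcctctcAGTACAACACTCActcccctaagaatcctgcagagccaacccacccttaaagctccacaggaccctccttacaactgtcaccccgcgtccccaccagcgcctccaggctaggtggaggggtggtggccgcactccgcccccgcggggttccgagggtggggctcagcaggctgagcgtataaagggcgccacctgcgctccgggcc

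Slc27a1, chr8:71568621-71568870, strand +: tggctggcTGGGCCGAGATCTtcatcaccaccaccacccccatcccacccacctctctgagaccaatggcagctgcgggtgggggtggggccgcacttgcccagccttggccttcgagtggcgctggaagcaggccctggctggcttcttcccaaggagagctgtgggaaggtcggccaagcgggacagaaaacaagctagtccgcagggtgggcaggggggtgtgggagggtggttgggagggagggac

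Fabp1 matched 11 of the 12 letters, on the opposite strand from base 67 to base 55 before the start, and 0.484% of the 32851 promoter windows matched at least as well. Cd36 matched 10, from base 63 to 51, as did or exceeded 3.24% of windows. Slc27a2 and Fabp2 matched 9, which 21.3% of windows reached. Aqp3, Slc27a4 and the start of Slc27a1 shown above matched 7, which 99.6% of windows reached. The best of the 3 starts of Slc27a1 matched 8, which 74.5% of windows reached. The starts of Vldlr matched 8 and 7. A match is a description of letters, not a binding site.

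Other genes of the pathway were taken from lists by role, in which 57 of 66 genes had a probe of 1 symbol. Of the 7 other genes for uptake at the membrane, none was called in the 4 comparisons with a control. Slc27a5, the transport protein most typical of liver, stayed between 10.66 and 10.97 in all 18 arrays. Of the 3 acyl-CoA synthetases measured, Acsl5 rose under PFOS on the high-fat diet (0.90, SE 0.21, adjusted p = 0.0497), from 10.13, 10.02 and 10.20 to 11.32, 10.80 and 10.92. Acsl4 differed by 1.03 there (SE 0.33, adjusted p = 0.156).

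Of the 6 other carriers none was called, and the largest difference was that of Fabp7, a carrier best known from brain (0.88, SE 0.28, adjusted p = 0.153, under PFNA on the low-fat diet). Among the 11 genes of lipoprotein lipolysis and uptake, Lipg, the endothelial lipase, fell over both compounds and diets (−0.58, SE 0.15, adjusted p = 0.0355), and none was called in the single comparisons with a control. The regulators of Lpl protein, Angptl4 and Gpihbp1, were not called in any comparison. Of the 4 glycerol genes measured none was called. Aqp7 differed by 1.16 (SE 0.44, adjusted p = 0.245) under PFOS on the high-fat diet, while Aqp9, the main glycerol channel of hepatocytes, stayed between 10.19 and 10.69.

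Outputs of the receptors that act on these genes are given beside them. These lists were chosen with earlier results of the same data known, so counts over them are descriptions. Of 9 PPARA outputs, 3 rose under PFOS on the high-fat diet (Acot1, a thioesterase, by 2.71, SE 0.37; Ehhadh, a peroxisomal enzyme, by 1.98, SE 0.40; Cyp4a14 by 0.79, SE 0.13), and 0 fell. None of the 9 was called in the other 3 comparisons with a control. Of all probes 0.632% were called higher under PFOS on the high-fat diet. Of 4 outputs of PPARG in fatty liver, Mogat1, which makes diglyceride, rose there (3.03, SE 0.49, adjusted p = 0.00935), and Cidea, a protein of lipid droplets, read 11.02, 9.94 and 10.86. Cidea was not called there. Neither were Cidec (2.71, adjusted p = 0.0584) and Plin4 (−0.39, adjusted p = 0.768), also lipid droplet proteins. Cidea read 10.99 and 10.58 in the divergent arrays. In the other 13 arrays it lay between 4.07 and 5.34, apart from high-fat control replicate 1 at 7.89. That control also had the highest Lpl of the 6 controls. Cyp2b10, an output of CAR, rose in all 4 exposures, by 4.39 to 5.71. It read 7.26 to 9.28 in the 5 arrays and 9.44 to 10.63 in the other 7 exposed arrays, against 3.81 to 4.58 in the controls. The 5 arrays were picked out from the same data, and the share of all probes split in this way was not computed. Of the 6 CAR outputs 5 were called higher on the low-fat diet with each compound (Cyp2b10, Cyp2c55, Cyp2b9, Gstm3 and Abcc3) and 2 on the high-fat diet with each (Cyp2b10 and Cyp2c55). Under PFOS 0.281% of all probes were called higher on the low-fat diet and 0.632% on the high-fat diet. Under PFNA 0.566% and 0.113% were called in either direction. Each of the other CAR outputs overlapped between the 5 arrays and the other 7. Cyp2c55 read 6.44 to 7.63 in the 5 and 7.43 to 8.55 in the 7, and Cyp2b13 3.91 to 6.33 and 5.38 to 9.32. Cyp2b9 read 11.36 to 12.36 in the 5 arrays and 10.76 to 12.01 in the other 7. Gstm3 and Abcc3 overlapped over most of their ranges.

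Of the receptors themselves, Ppara lay between 9.72 and 10.07 in all arrays and was not called. Pparg read 6.03, 6.03 and 6.31 in the low-fat controls and 7.05, 7.14 and 7.51 under PFNA on that diet (1.11, SE 0.33, adjusted p = 0.131). Ahr, which is known to act on Cd36, fell under PFOS on the high-fat diet, with a difference of −1.12 (SE 0.26, adjusted p = 0.0445). Over both compounds and diets Ahr fell as well (−0.64, SE 0.16, adjusted p = 0.0244), Rxra fell (−0.32, SE 0.08, adjusted p = 0.0314) and Nr1i2, which encodes PXR, rose (0.37, SE 0.10, adjusted p = 0.0410).

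Cells other than hepatocytes also make some of these proteins, and in whole liver fewer cells of a type and less RNA per cell cannot be told apart. The mean over 6 of 7 adipocyte markers measured was between 4.05 and 4.30 in all 18 arrays, and Adipoq, the defining hormone of fat cells, stayed between 2.07 and 2.84, under the median of all probes. Of these 6 markers Lipe, a lipase, was called higher in all 4 exposures, by 0.56 to 0.86, and no other was called in any of the 12 comparisons. The mean over 10 macrophage markers was 6.83 to 7.12 under PFOS on the high-fat diet, within the 6.45 to 7.62 of the high-fat controls. Any part of macrophages in the differences of Fabp4 and Lpl there was not tested. On the low-fat diet it was 7.16 to 7.54 under PFOS and 7.23 to 7.54 under PFNA, against 6.57 to 7.17 in the controls, and none of the 10 was called. The endothelial mean over 8 markers was 8.28 to 8.57 under PFOS and 8.47 to 8.53 under PFNA on the low-fat diet, against 7.68 to 8.20. These levels moved with Cd36 on that diet, and their part in the difference was not tested. Over both compounds and diets Oit3, an endothelial marker, rose (0.56, adjusted p = 0.0190), and the hepatocyte markers Apoa1 (−0.28, adjusted p = 0.0241) and Serpina1a (−0.30, adjusted p = 0.0299) fell. The mean over 5 enterocyte markers stayed between 3.52 and 3.74, below the median of all probes, beside the signal of Fabp2.

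Stellate cell and cholangiocyte markers were measured as well. The stellate cell mean was 7.28 to 7.54 under PFOS on the high-fat diet, against 7.38 to 8.34 in its controls, and the cholangiocyte mean was 4.62 to 4.81 against 4.63 to 5.24. No gene of either list was called in any of the 12 comparisons.

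The 3 genes most like each member were named by their Pearson correlation over the 18 arrays. For Cd36 these were Cyp2a22 (0.97, and 0.94 over the 13 arrays), Mpp1 (0.93 and 0.87) and Clybl (0.93 and 0.84). For Slc27a1 they were Vwa8 (0.96 and 0.86), Hprt (0.96 and 0.72) and Ech1 (0.96 and 0.76). Slc27a4 and Fabp4 were each other's closest gene (0.98 and 0.79), followed by Slc39a5 and Dgkh for Slc27a4 and by Sptlc3 and Prrg4 for Fabp4. Lpl was most like Cidea (0.96 and 0.73), then Prrg4 and Fabp4, and Vldlr like Bhlhb9 (0.94 and 0.73), then Kdsr and Il1rn. Aqp3 was most like Psmd4 (0.97 and 0.68), then Pdk4 and Myo15b, and Slc27a2 like Hspd1 (0.90 and 0.57), then Nceh1 and Coq3. Fabp1 was most like Cycs (0.93 and 0.73), then Fabp2 and Ndufa4, and Fabp2 like Ndufa4 (0.93 and 0.63), then Fabp1 and Micos13 (0.93 and 0.91). The correlation was lower over the 13 arrays than over all 18 for every pair named, least so for Fabp2 with Micos13. The genes were picked by their correlation over all 18, and that choice itself favours a lower value over the 13.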

How the data were processed

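Liver RNA, extracted with Trizol per the labels' protocols, was measured on 18 arrays. The authors deposited 1 value per probe and array, and per the submitters' processing notes the tool was Transcriptome Analysis Console. No source used here gives the background correction, normalization or summarization. The deposited values, from 0.91 to 14.01, were taken as log2 signal from their range and skew, so every log2 difference and fold rests on that reading. The number of arrays limits the precision.

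A mean per group was fitted to all 34472 probes with limma 3.58.1 in R 4.3.3 (12 residual and 5.21 prior degrees of freedom), with no filter on signal. For 12 contrasts p-values were adjusted by Benjamini and Hochberg over all probes. Of the probes 23521 had 1 symbol, 1814 several and 9137 none. The fit was tested on simulated data with independent normal noise and the same spread in all groups. Those data held no arrays set apart from their group, so the effect of such arrays on the fit was not tested.

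By rule the genes named were all members, the called genes of each pathway list (up to 4 by size, or the 2 with the largest difference where none was called) and the 3 genes most correlated with each member. The text departs from it: lists with no call are given by 1 or 2 genes, not always those with the largest difference, all 5 called CAR outputs are named, and genes that a count or range singles out were added after their values were seen. The members and lists were chosen with earlier results of these data known. Alternatives were quantile normalization, 75th percentile scaling, a filter at the median probe, an intensity trend with a robust prior, a fit to the compared groups, the replicate number as a block, the mean of a gene's probes, and leaving out each array. Leaving out the 2 divergent arrays was added after the data were seen. The replicate numbers were not taken as pairs.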

Additional observations from a re-analysis of the deposited data

How the results depend on the processing

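Of 10 members, the number called under PFOS on the low-fat diet was 1, and 0 after quantile normalization, 75th percentile scaling, an intensity trend or a fit to the compared groups, and 0 to 0 without any 1 array. Under PFOS on the high-fat diet it was 2, and 5 among probes above the median probe, 1 with an intensity trend, 7 in the compared groups alone, 9 without the 2 divergent arrays and 0 to 1 without any 1 array. Over both compounds and diets it was 3, and 6 without the 2 divergent arrays. Without them it was also 1 in place of 0 for PFNA on the low-fat diet, 8 for PFNA against PFOS on the high-fat diet, 8 for the diets under PFOS and 2 for the interaction with PFOS. Leaving out 1 array gave 0 to 1 for the diets under PFOS.

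With the replicate number as a block, 1 member was called under PFNA on the low-fat diet, 6 under PFOS on the high-fat diet and 7 over both compounds and diets. The pairing is not borne out: deviations of same-numbered arrays correlated between −0.07 and 0.18, over 0.1 in 1 of 27 pairs, and every array correlated best with its own number in 1 of 9 comparisons.

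Signs turned for members that were not called. Without the 2 divergent arrays PFNA against PFOS on the low-fat diet was 0.0317 (Slc27a4), 0.152 (Lpl), 0.02 (Vldlr) and 0.0933 (Aqp3), and the diets under PFNA differed by −0.0283 in Slc27a1. Without 1 array these ran from −0.45 to 0.0317, −1.17 to 0.152, −0.93 to 0.02 and −1.37 to 0.0933, and from −0.0283 to 1.21. Signs were compared for members whose difference was at least its SE. The count over both compounds and diets uses all groups, so it has no fit to the compared groups alone. Signals near the median of all probes, as of Aqp3 in the controls, limit the size of a difference.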
